A study of Mus musculus with 6 samples.

Results

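Hepatocyte fate in the liver is set by a small set of transcription factors, and the 10 genes described here are Hnf4a, Foxa1, Foxa2, Foxa3, Onecut1, Onecut2, Hhex, Prox1, Cebpa and Cebpb. They were matched by gene symbol, without a threshold on their values, and are 10 of the 52323 genes in the count table. All 10 passed the filter on low counts, which left 19135 genes for testing. The libraries came from damaged hepatocytes (dHeps), cells taken by collagenase perfusion from the livers of mice injured with carbon tetrachloride (CCl4) and cultured in serum-free Hepatocyte Maintenance Medium. The control cells received the solvent DMSO. The 3C cells received 3 compounds, namely CID755673 at 50 µM to block protein kinase D, GSK429286A at 2 µM, and ETC-1002 at 5 µM, which acts on ATP citrate lyase in lipid synthesis. The 5C cells received these compounds at the same doses, with 2 more, salidroside (a glucoside from plants) at 5 µM and forskolin (which raises cAMP through adenylate cyclase) at 2 µM. RNA was sequenced on day 16, and each group had 2 libraries.

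All 3 groups shared the genotype AAV-TBG-Cre:Rosa-LSL-tdTomato. In such mice a virus carries Cre under the thyroxine-binding globulin promoter, which is active in hepatocytes, and recombined cells and their descendants carry tdTomato. The mice had a C57BL/6 background, were 8 to 10 weeks old at labelling and received CCl4 for 12 weeks. The paper describes its hepatocyte isolation as enriching for tdTomato-positive, hepatocyte-derived cells. The sources used here name no sort for tdTomato before the culture, so the wells could hold other liver cells. The labels did not say whether replicates came from separate animals, and p-values measure only the spread between these libraries.

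HNF4A is a nuclear receptor that binds the control regions of a large share of hepatocyte genes, and its loss removes the hepatocyte program. The FOXA proteins are forkhead factors that open compacted chromatin during liver specification, ONECUT proteins act with them in hepatoblasts and in the bile duct lineage, and HHEX and PROX1 are homeobox factors needed for the liver bud to form and expand. CEBPA drives metabolic genes of the mature hepatocyte, whereas CEBPB is induced by injury, cytokines and cAMP and drives acute phase genes.

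The libraries held 65916573 to 69245895 counts, so depth differed by a ratio of 1.05. Across genes, Pearson's r of log2 CPM (counts scaled to a common library total) was at least 0.975 within groups and at most 0.969 between them. The hepatocyte label was checked against 9 markers, including Alb and Ttr. Their summed level was 1498 to 1737 CPM in DMSO, 9241 to 9693 CPM in 3C and 9538 to 14020 CPM in 5C. The 11 macrophage markers summed to 11810 to 12750 CPM in DMSO, 4073 to 4088 CPM in 3C and 2638 to 2743 CPM in 5C. In DMSO, Lyz2 alone had a mean of 6080 CPM and Alb alone 1269 CPM. Sums over different marker lists therefore do not rank the amounts of the cell types. The 9 stellate cell and fibroblast markers summed to 5636 to 6514 CPM in DMSO, 4790 to 4837 CPM in 3C and 7303 to 7827 CPM in 5C. Col1a1 alone had a mean of 3201 CPM in DMSO, and the markers did not move together. By the test described below, 5 rose and 4 fell in 3C against DMSO, with a median log2 fold change of 0.72. In 5C against DMSO 4 rose and 2 fell, with a median of 0.26. Neutrophil, T and B cell markers were near 0. Macrophages express Cebpa and Cebpb as well, and in bulk samples fewer cells of a type and less RNA per cell cannot be told apart. The part of other cell types in the results below was not tested.

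A total of 4 patterns of level were seen among the factors. Hnf4a, Foxa3, Onecut1 and Prox1 were higher in both cocktails than in DMSO. Foxa1 and Hhex were higher in 3C and stood near the DMSO level in 5C. Foxa2, Onecut2 and Cebpa were lowest in 5C, and Cebpb was highest there. In CPM, both 3C libraries lay above the other 4 libraries for 7 factors, namely Hnf4a, Foxa1, Foxa3, Onecut1, Onecut2, Hhex and Prox1, beside 15.4% of all genes tested. Both 3C libraries lay below the other 4 for 0 factors (8.69% of genes tested). Both 5C libraries were the lowest for 4 factors (18.5%) and the highest for 1, Cebpb (14.6%). Both DMSO libraries were the lowest for 5 factors (21.3%) and the highest for 1, Cebpa (19.9%).

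**Figure D1:**
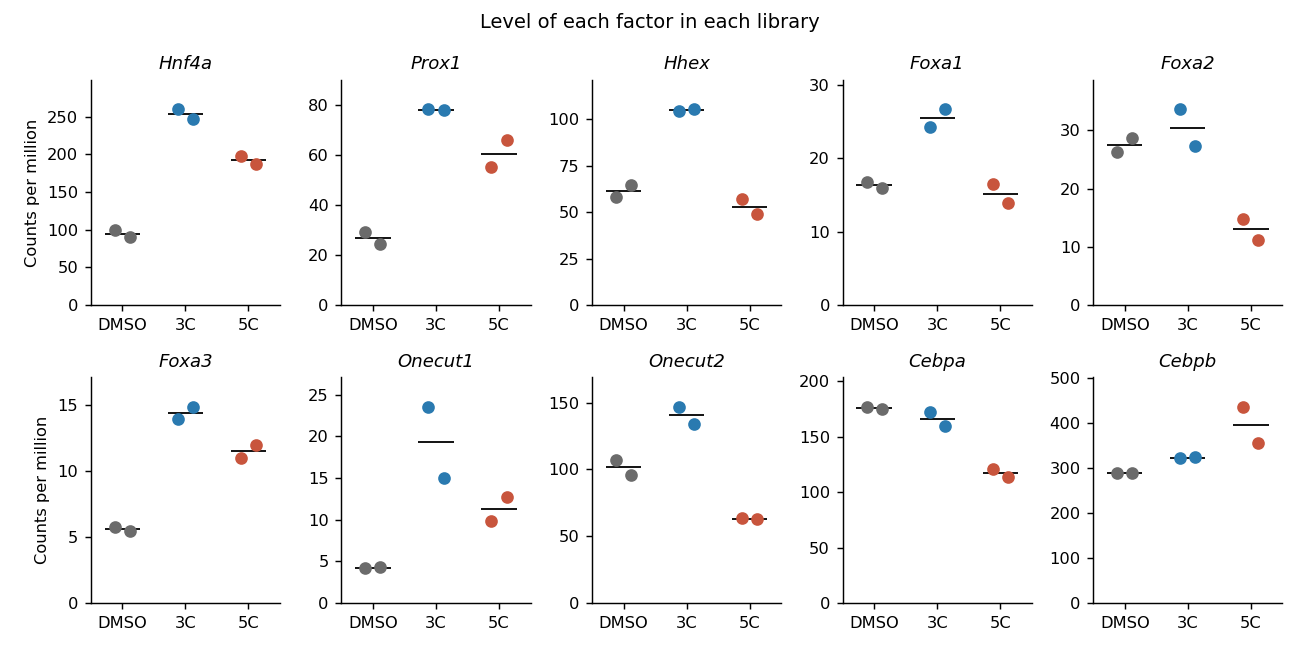
Level of each factor in CPM (vertical axes, from 0) in the 2 DMSO, 2 3C and 2 5C libraries. Points are libraries and lines are group means. Hnf4a, Prox1, Foxa3 and Onecut1 stand lowest in DMSO, whereas Foxa2, Onecut2 and Cebpa stand lowest in 5C.

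The comparison of 3C with DMSO asked which factors moved with the smaller cocktail. Of the 10 factors, 7 rose and 0 fell at a Benjamini-Hochberg adjusted p under 0.05 in edgeR's quasi-likelihood test over all genes. Of all genes tested, 24.5% were called, 12.7% higher and 11.8% lower. The rise passed an absolute log2 fold change of 1 for 4 factors (9.45% of genes tested), which were Hnf4a, Foxa3, Onecut1 and Prox1. The median log2 fold change of the factors was 0.67, beside 0.01 over all genes tested. The groups did not overlap in CPM for 9 factors, as for 61.3% of genes tested.

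In the comparison of 5C with DMSO, 5 factors rose and 3 fell. Of all genes tested, 28.7% were called, 15.6% higher and 13.1% lower. Hnf4a, Foxa3, Onecut1, Prox1 and Cebpb rose, and Foxa2, Onecut2 and Cebpa fell. The change exceeded log2 1 for 5 factors (11.7% of genes tested), all of the rising ones except Cebpb and, among those that fell, Foxa2. The median over the factors was 0.19, beside 0.004 over all genes tested. The groups did not overlap for 9 factors (63.1% of genes tested). The DMSO libraries were shared by these 2 comparisons, so they are not independent of each other.

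Setting 5C beside 3C addressed what differed once salidroside and forskolin were added. Its fold changes do not use the DMSO level, although the DMSO libraries entered the filter and the estimate of the spread. Of the 10 factors, 6 fell and 1 rose, beside 12.7% of all genes called in either direction, 5.33% lower and 7.33% higher. Foxa2, Onecut2, Hhex, Foxa1, Cebpa and Hnf4a fell and Cebpb rose. The change passed log2 1 for 2 factors, Foxa2 and Onecut2 (3.01% of genes tested). The factors had a median log2 fold change of -0.57, beside -0.01 over all genes tested. The groups did not overlap for all 10 factors, as for 58.0% of genes tested. Without 3C replicate 1 the calls of Hnf4a, Cebpa and Cebpb were lost, and fewer of all genes were called as well. Over the alternatives other than the fold limit, the log2 fold change ran from -0.434 to -0.313 for Hnf4a. It ran from -0.5 to -0.391 for Cebpa and from 0.199 to 0.462 for Cebpb. The limma fits to FPKM each called 2 factors, Onecut2 and Hhex, beside 502 and 534 genes in all.

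**Figure D2:**
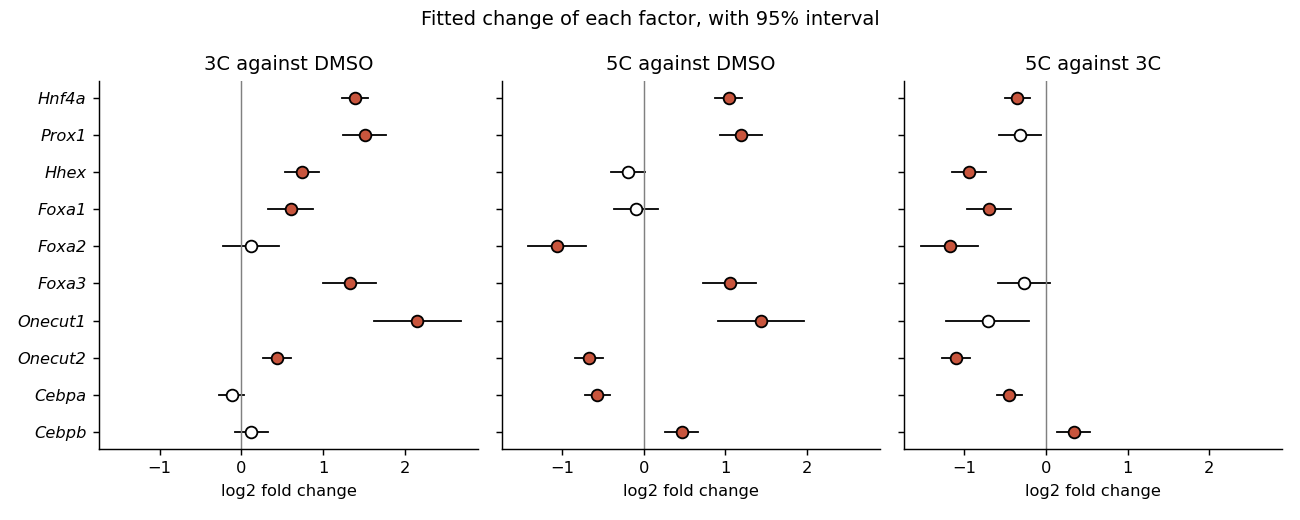
Fitted log2 fold change of each factor (horizontal axis) with its 95% interval in the 3 comparisons. Filled points passed the adjusted p threshold of 0.05 and open points did not. In 5C against 3C, 9 of the 10 points lie below 0 and Cebpb lies above.

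Hnf4a (ENSMUSG00000017950, chromosome 2, 163348728 to 163414830, plus strand, GRCm39) had 99.2 and 90.3 CPM in DMSO, 259.8 and 247 in 3C, and 198 and 187 in 5C. The groups were fully separated, with 3C highest and DMSO lowest. The log2 fold change was 1.39 in 3C against DMSO (SE 0.07, adjusted p = 3.48e-06) and 1.04 in 5C against DMSO (SE 0.07, adjusted p = 8.35e-06). Hnf4a was 1.27-fold lower in 5C than in 3C (log2 fold change -0.35, SE 0.07, adjusted p = 0.0119). This last call was lost without either 3C library and without 5C replicate 2, at adjusted p of 0.139, 0.0729 and 0.0682.

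Prox1 (ENSMUSG00000010175, chromosome 1, 189850232 to 189904637, minus strand) encodes a homeobox factor that binds HNF4A and restrains the bile duct program. It had 29.4 and 24.4 CPM in DMSO, 78.3 and 77.9 in 3C and 55.2 and 65.8 in 5C. DMSO lay far below both cocktails, and 5C lay between. The log2 fold change was 1.51 in 3C against DMSO (SE 0.12, adjusted p = 2.3e-05) and 1.19 in 5C against DMSO (SE 0.12, adjusted p = 6.41e-05). Between 5C and 3C it was -0.32 with a 95% interval from -0.57 to -0.06, and the adjusted p was 0.11. Prox1 also marks lymphatic endothelium, of which Flt4, Pdpn and Lyve1 could be tested. Each cocktail had 1 of these higher and 1 lower than DMSO, namely Flt4 higher in 3C, Pdpn higher in 5C and Lyve1 lower in both. The summed level of the list was 466 to 467 CPM in DMSO, 248 to 261 in 3C and 330 to 352 in 5C. A sum leaving out Lyve1, chosen after seeing the data, was higher with both cocktails. DMSO libraries then had 147 to 158 CPM, both 3C libraries 182, and 5C libraries 281 to 286. A different gene carried each rise. Mean Flt4 was 52.0 CPM with DMSO, 78.6 with 3C and 58.0 with 5C. Mean Pdpn was 100.6 CPM with DMSO, 103.3 with 3C and 225.5 with 5C. Which cells expressed Pdpn was not tested. The antisense gene Prox1os covers 10.9% of the exon bases of Prox1 and held at most 0.737 CPM in any library.

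Hhex (ENSMUSG00000024986, chromosome 19, 37423258 to 37429179, plus strand) had 58.1 and 64.9 CPM in DMSO, 105 and 106 in 3C and 57.3 and 48.9 in 5C. The 3C libraries stood well above all others. The nearest DMSO and 5C libraries came within 1 CPM of each other, with both 5C libraries below both DMSO libraries. The means were 61.5 CPM in DMSO and 53.1 in 5C. Hhex rose by 0.74 on the log2 scale in 3C against DMSO (SE 0.09, adjusted p = 0.00037) and was 1.91-fold lower in 5C than in 3C (log2 fold change -0.94, SE 0.09, adjusted p = 0.000496). In 5C against DMSO the log2 fold change was -0.20 with a 95% interval from -0.40 to 0.01 (adjusted p = 0.154). Endothelial cells express Hhex too. Of the 7 endothelial markers tested, 3 rose and 1 fell in 3C against DMSO, 5 rose and 1 fell in 5C against DMSO, and 3 rose and 0 fell in 5C against 3C. Their sum was 328 to 338 CPM in DMSO, 89.2 to 122 in 3C and 148 to 229 in 5C, most of it in DMSO and 3C from Lyve1, which macrophages also express. Without Lyve1, a sum chosen after seeing the data, it was 18.9 to 19.3 CPM in DMSO, 23.1 to 43.5 in 3C and 99.5 to 163 in 5C.

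Promoter sequences are shown for the factors whose windows held a forkhead or an ONECUT core, and for the second Hnf4a start, since the families that read these letters are themselves among the factors. They are the 250 bases before an annotated start, read along the gene, from RefSeq (GRCm38.p6), in which 9 of the 10 factors matched with 13 windows. The motif counts below used whole windows of 300 bases, which add the 50 bases after the start. Capitals mark exact matches on either strand. The ONECUT core ATTGAT (reverse ATCAAT) occurred in 2 of the 13 windows of the factors, and in 7.54% of 32851 windows of all genes. The forkhead core TGTTTAC (reverse GTAAACA) occurred in 1 of the 13 and in 3.65% of all windows. A match is a description of letters, not a site of binding. The HNF4 repeat CAAAGTCCA (0.475% of all windows), the CEBP palindrome TTGCGCAA (0.183%) and the cAMP response element TGACGTCA (1.79%) occurred in 0 of the 13 windows.
Hnf4a, upstream start, chr2:163506607-163506856, plus strand: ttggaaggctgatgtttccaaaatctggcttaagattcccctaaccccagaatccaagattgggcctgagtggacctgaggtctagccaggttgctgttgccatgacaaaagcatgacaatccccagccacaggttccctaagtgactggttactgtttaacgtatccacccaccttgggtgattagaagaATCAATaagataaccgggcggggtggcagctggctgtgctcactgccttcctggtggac
Hnf4a, downstream start, chr2:163546905-163547154, plus strand: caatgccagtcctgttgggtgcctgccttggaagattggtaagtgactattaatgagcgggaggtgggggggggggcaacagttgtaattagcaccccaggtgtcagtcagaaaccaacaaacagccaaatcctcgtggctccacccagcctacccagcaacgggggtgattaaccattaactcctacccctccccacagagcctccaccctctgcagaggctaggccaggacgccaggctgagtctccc
Foxa2, outermost start, chr2:148046970-148047219, minus strand: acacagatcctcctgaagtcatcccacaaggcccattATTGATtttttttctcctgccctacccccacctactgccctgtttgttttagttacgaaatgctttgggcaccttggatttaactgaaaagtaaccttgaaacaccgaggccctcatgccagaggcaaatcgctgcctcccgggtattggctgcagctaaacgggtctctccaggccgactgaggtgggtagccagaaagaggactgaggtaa
Foxa1, chr12:57546112-57546361, minus strand: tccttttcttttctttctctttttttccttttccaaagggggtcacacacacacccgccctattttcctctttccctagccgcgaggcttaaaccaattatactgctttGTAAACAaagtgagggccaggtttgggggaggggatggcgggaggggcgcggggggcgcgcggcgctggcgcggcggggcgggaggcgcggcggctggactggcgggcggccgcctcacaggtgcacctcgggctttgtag

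The ONECUT core lay 59 bases before the upstream start of Hnf4a and 213 bases before the outermost start of Foxa2. The forkhead core lay 141 bases before the start of Foxa1. The downstream Hnf4a window held 0 of the 5 motifs. Hnf4a and Foxa2, which both held an ONECUT core, had opposite directions in 5C against DMSO.

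Among the FOXA factors, Foxa3 (ENSMUSG00000040891, chromosome 7, 18747209 to 18757471, minus strand) is the form most tied to the mature hepatocyte and contributes to glucose homeostasis. It had 5.76 and 5.46 CPM in DMSO, 14.0 and 14.9 in 3C and 11.0 and 12 in 5C. All 4 cocktail libraries lay above DMSO. The log2 fold change was 1.33 in 3C (SE 0.14, adjusted p = 0.00017) and 1.06 in 5C (SE 0.14, adjusted p = 0.000527), each against DMSO. Between 5C and 3C it was -0.27 with a 95% interval from -0.59 to 0.05 (adjusted p = 0.281).

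Foxa2 (ENSMUSG00000037025, chromosome 2, 147884797 to 147889005, minus strand) is a pioneer factor of foregut endoderm that in the adult liver acts in bile acid and lipid metabolism. It had 26.2 and 28.6 CPM in DMSO, 33.6 and 27.2 in 3C and 14.8 and 11.2 in 5C. The 3C and DMSO libraries overlapped, and both 5C libraries lay far below. Foxa2 was 2.09-fold lower in 5C than in DMSO (log2 fold change -1.06, SE 0.15, adjusted p = 0.000822) and 2.26-fold lower than in 3C (log2 fold change -1.18, SE 0.15, adjusted p = 0.00185). In 3C against DMSO the log2 fold change was 0.12 with a 95% interval from -0.23 to 0.46 (adjusted p = 0.659), and its sign turned without 3C replicate 1 (-0.04).

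Foxa1 (ENSMUSG00000035451, chromosome 12, 57587414 to 57593702, minus strand), the closest relative of Foxa2 and partly redundant with it in the embryonic liver, had 16.8 and 16.0 CPM in DMSO, 24.3 and 26.7 in 3C and 16.5 and 13.9 in 5C. Only the 3C libraries stood apart. Foxa1 rose by 0.60 on the log2 scale in 3C against DMSO (SE 0.12, adjusted p = 0.00564), a call lost without 3C replicate 2 (adjusted p = 0.0629) and in both limma fits to FPKM (0.0704 and 0.0663). It was 1.62-fold lower in 5C than in 3C (log2 fold change -0.70, SE 0.12, adjusted p = 0.00599), also lost without 3C replicate 2 (adjusted p = 0.0658). In 5C against DMSO the value was -0.09 with a 95% interval from -0.37 to 0.18 (adjusted p = 0.636).

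The FOXA factors therefore had unequal changes, and their mix was set out per length with FPKM (fragments scaled for gene length and depth). Foxa2 made up 62.4% and 64.1% of the summed FOXA FPKM in the DMSO libraries, 53.5% and 46.1% in 3C and 41.1% and 34.3% in 5C. Foxa3 made up 13.1% and 12.5% in DMSO, 22.0% and 25.1% in 3C and 30.1% and 37.9% in 5C. Neither share overlapped between groups, and in 5C replicate 2 Foxa3 exceeded Foxa2. Foxa1 ranged from 23.4% to 28.8% over all libraries. The summed FOXA level was 20.2 and 19.0 FPKM in DMSO, 27.5 and 26.2 in 3C and 16.4 and 13.8 in 5C. With 2 libraries against 2, an exact two-sided permutation test cannot go below p = 0.33, so shares are given as a description.

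**Figure D3:**
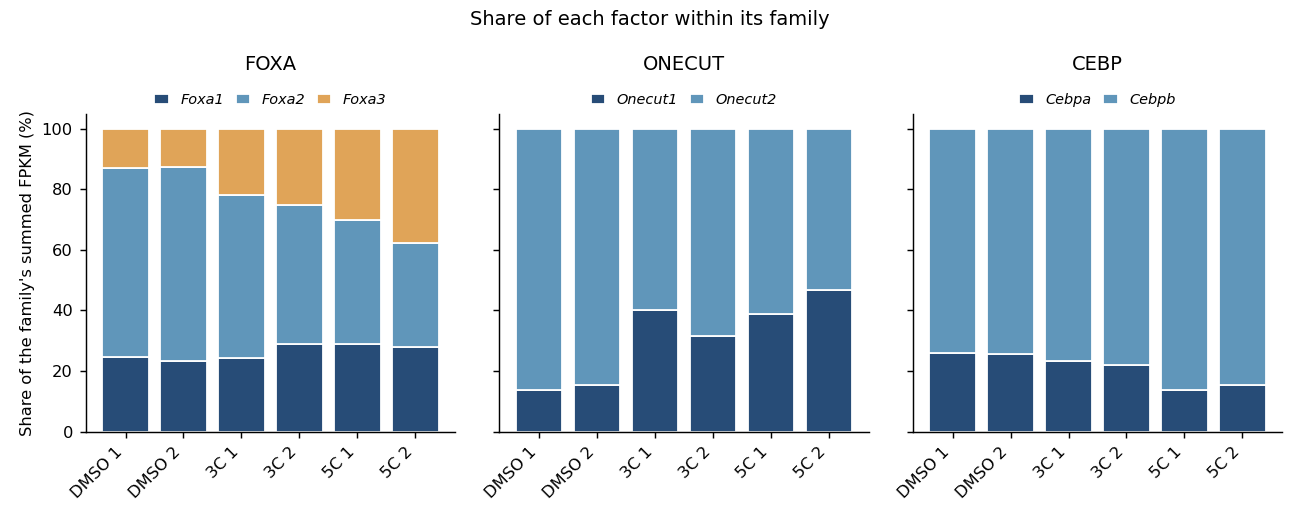
Share of each factor in the summed FPKM of its family (vertical axis, percent) in each of the 6 libraries. Foxa2 takes 62.4% to 64.1% of the FOXA level in DMSO and 34.3% to 41.1% in 5C, and Cebpb takes 74.1% to 74.3% of the CEBP level in DMSO and 84.5% to 86.3% in 5C.

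Onecut1 (ENSMUSG00000043013, chromosome 9, 74769118 to 74800594, plus strand), also known as Hnf6, links the hepatocyte program to the bile duct lineage. It had 4.20 and 4.26 CPM in DMSO, 23.5 and 15.0 in 3C and 9.86 and 12.8 in 5C. All cocktail libraries lay above DMSO, with a wide spread inside each cocktail. The log2 fold change was 2.15 in 3C against DMSO (SE 0.23, adjusted p = 0.000179) and 1.44 in 5C against DMSO (SE 0.23, adjusted p = 0.0015), the second lost in limma on log2(FPKM + 1) at an adjusted p of 0.0592. Between 5C and 3C it was -0.71 with a 95% interval from -1.22 to -0.21 (adjusted p = 0.0722). This value rested on single libraries, at -1.001 (adjusted p = 0.0338) without 3C replicate 2, -0.35 (0.53) without 3C replicate 1 and -0.53 (0.311) without 5C replicate 1.

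The counts of Onecut1 cannot be separated from those of a neighbour. Of the 50-base words of its longest transcript, 44.5% also occurred in transcripts of other genes, and 2171 exon bases on the same strand belong to the long non-coding RNA Gm20649 as well. Gm20649 was at 3.37 and 1.55 CPM in DMSO, 0 and 9.29 in 3C and 3.72 and 0 in 5C. In each cocktail it was at 0 in the library with the higher Onecut1 level. With the reads of both genes summed, an alternative chosen after seeing the data, the libraries had 7.56 and 5.81 CPM in DMSO, 23.5 and 24.3 in 3C and 13.6 and 12.8 in 5C. The SD within 3C was 6.04 CPM for Onecut1 alone and 0.531 CPM for the sum. The summed level rose by 1.81 on the log2 scale in 3C (SE 0.15, adjusted p = 3.16e-05) and by 0.997 in 5C (SE 0.14, adjusted p = 0.000798) against DMSO. The 5C value of the sum was just under the log2 limit of 1, which Onecut1 alone passed at 1.44. The sum fell between 3C and 5C, with a log2 fold change of -0.81 (SE 0.14, adjusted p = 0.00628).

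Onecut2 (ENSMUSG00000045991, chromosome 18, 64473091 to 64534058, plus strand), a relative of Onecut1 with an overlapping role in the developing liver and bile ducts, had 107 and 96.0 CPM in DMSO, 147 and 134 in 3C and 63.3 and 63.1 in 5C. The groups were fully separated, with DMSO in the middle. Onecut2 was the one factor of the 10 that passed the test in opposite directions against DMSO. The log2 fold change was 0.44 in 3C (SE 0.08, adjusted p = 0.00264) and -0.67 in 5C (SE 0.08, adjusted p = 0.000185). The 3C call was lost in both limma fits to FPKM (adjusted p = 0.0921 and 0.0914), and the 5C call was not. Onecut2 was 2.15-fold lower in 5C than in 3C (log2 fold change -1.10, SE 0.08, adjusted p = 0.000151).

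Per length, Onecut1 made up 13.8% and 15.5% of the summed level of both ONECUT genes in DMSO, 40.2% and 31.6% in 3C and 39.0% and 46.8% in 5C. The cocktails overlapped and both lay above DMSO. The summed level was 7.13 and 6.20 FPKM in DMSO, 13.4 and 10.9 in 3C and 5.84 and 6.49 in 5C. In 5C the ONECUT total thus overlapped DMSO while its makeup did not. These shares carry the uncertainty of the Onecut1 reads described above.

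Cebpa (ENSMUSG00000034957, chromosome 7, 34818718 to 34821353, plus strand) had 177 and 175 CPM in DMSO, 172 and 159 in 3C and 121 and 114 in 5C. The DMSO and 3C values lay close together and the 5C values below both. Cebpa was 1.48-fold lower in 5C than in DMSO (log2 fold change -0.57, SE 0.07, adjusted p = 0.00026) and 1.36-fold lower than in 3C (log2 fold change -0.45, SE 0.07, adjusted p = 0.00337). In 3C against DMSO the value was -0.12 with a 95% interval from -0.27 to 0.04 (adjusted p = 0.27). Of the 11 macrophage markers, 9 fell and 1 rose in each cocktail against DMSO, and 8 fell and 0 rose in 5C against 3C. The one that rose was Cd14, by 0.86 in 3C and 0.60 in 5C on the log2 scale. The list median was -1.64 for 3C, -2.06 for 5C and -0.49 between the cocktails.

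Cebpb (ENSMUSG00000056501, chromosome 2, 167530835 to 167532338, plus strand) had 290.4 and 290.0 CPM in DMSO, 323 and 324 in 3C and 437 and 356 in 5C. The 5C libraries were the highest and also the farthest apart. Cebpb rose by 0.47 on the log2 scale in 5C against DMSO (SE 0.09, adjusted p = 0.00389) and by 0.34 in 5C against 3C (SE 0.09, adjusted p = 0.0369). The second of these calls was lost without either 3C library and without 5C replicate 1, at adjusted p of 0.208, 0.186 and 0.183, and with upper quartile normalization (0.052) or library totals (0.0771). The call against DMSO was lost in limma on log2(FPKM + 1) and log2(FPKM + 0.1), at adjusted p of 0.09 and 0.0749. In 3C against DMSO the log2 fold change was 0.13 with a 95% interval from -0.08 to 0.33 (adjusted p = 0.378). The gene Tmem189 covers 20.7% of the exon bases of Cebpb on the other strand, and it had 104 and 116 CPM in DMSO, 69.6 and 67.8 in 3C and 58.3 and 47.4 in 5C, the opposite order. The library kit named in the labels does not mark strand, so reads of the shared bases cannot be told apart.

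Within the CEBP pair, Cebpb made up 74.1% and 74.3% of the summed FPKM in DMSO, 76.5% and 78.0% in 3C and 86.3% and 84.5% in 5C. The 3 groups did not overlap. The relatives Cebpd and Cebpg were also measured. Cebpd was not called, and Cebpg, a dimer partner without an activation domain, fell by 0.24 in 3C and by 0.31 in 5C on the log2 scale against DMSO. Of the 7 relatives listed, 3 could be tested.

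Levels of different factors were compared per length. In DMSO the order was Cebpb with 175 ± 6.23 FPKM (SD, n = 2), Cebpa with 61.0 ± 2.56, Hhex with 29.8 ± 1.72, Hnf4a with 22.8 ± 1.93, Foxa2 with 12.4 ± 0.27, Onecut2 with 5.69 ± 0.64, Foxa1 with 4.69 ± 0.35, Prox1 with 3.10 ± 0.52, Foxa3 with 2.50 ± 0.18 and Onecut1 with 0.97 ± 0.02. No neighbours in this order overlapped between their libraries. In 3C, Cebpa (56.6 ± 2.36 FPKM) and Hnf4a (54.6 ± 1.25) overlapped, with Hhex (50.2 ± 0.79) just below. In 5C, Hnf4a (40.4 ± 2.52) and Cebpa (40.4 ± 2.59) could not be ordered. Hnf4a thus stood well below Cebpa in DMSO and at its level in 5C. Prox1 passed Foxa2 in the 5C means, with 7.33 ± 1.11 against 5.74 ± 1.42 FPKM, though their libraries overlapped. Onecut1 came last in all 3 groups.

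**Figure D4:**
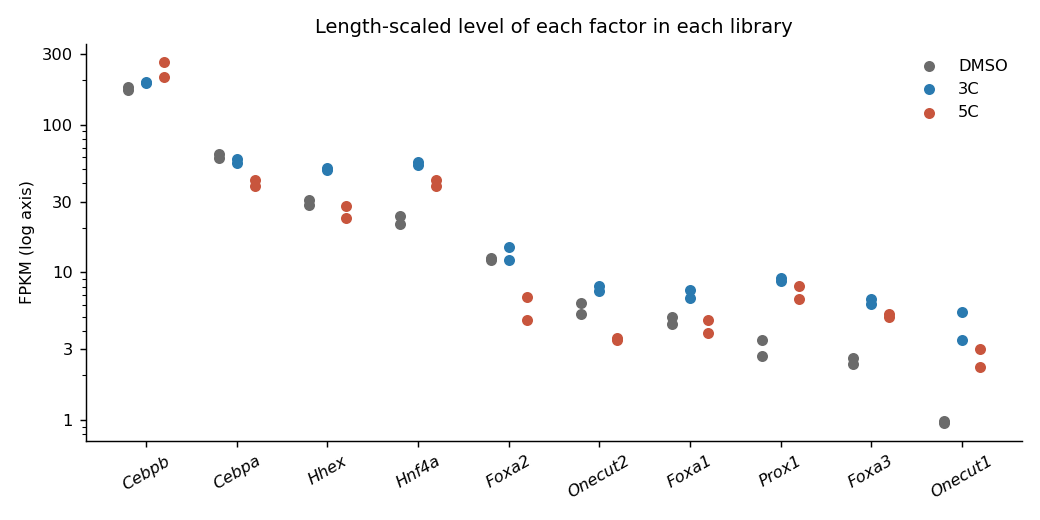
FPKM of each factor (vertical log axis) in each library, with factors ordered by their DMSO mean. Points are libraries and colours are groups. Cebpb lies above all other factors in every library, and Hnf4a reaches the level of Cebpa in 3C and 5C.

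Other factors of the hepatocyte network were counted from a list of 13 nuclear receptors and other liver-enriched factors. In 3C against DMSO 10 rose and 0 fell, with a median of 1.08, and in 5C against DMSO 12 rose and 0 fell, with a median of 0.98. Nr0b2 (the repressor SHP) rose by 2.19 in 3C and 2.83 in 5C on the log2 scale, Nr1i2 (the xenobiotic receptor PXR) by 1.97 and 1.91, and Ppara, a receptor for fatty acids, by 2.04 and 1.69. Between 5C and 3C 3 rose and 2 fell, with a median of 0.02. Gata4 (1.09), Gata6 (0.69) and Nr0b2 (0.64) rose and Nr5a2, a receptor of bile acid synthesis (-0.54), and Klf15 (-0.33) fell. GATA4 and GATA6 also mark mesothelial and stellate cells, and all 4 mesothelial markers rose in 5C against 3C with a summed level of 1009 to 1096 CPM in 3C and 1678 to 1713 CPM in 5C.

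Bile duct and progenitor factors were counted as well. Of 7 such genes, 5 rose and 0 fell in each cocktail against DMSO, and the median was 1.28 for 3C and 1.16 for 5C. Ehf rose by 3.34 and 2.86, Grhl2 by 2.13 and 1.65, and Hes1, a Notch target, by 1.31 and 1.40. Sox9 (-0.49) was the 1 gene that fell in 5C against 3C. The cholangiocyte markers summed to 2903 to 3386 CPM in DMSO, 3522 to 3710 in 3C and 2391 to 2688 in 5C, of which Spp1 alone had a mean of 2990 CPM in DMSO. Of the 6 repressors of epithelial genes, 0 rose and 2 fell in 3C against DMSO, while 2 rose and 1 fell in 5C. Zeb2 fell by 1.10 in 3C and by 1.16 in 5C, and Snai1 rose by 0.88 and Twist1 by 0.45 in 5C.

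Known targets of the factors were set beside them. Of 14 HNF4A targets listed, mostly apolipoprotein and clotting genes, 13 were in the count table and 11 passed the filter. Cyp7a1 and Cyp8b1 did not pass it, with at most 0.121 and 0.0578 CPM in any library of any group. Of the 11 tested, 9 rose and 1 fell in 3C against DMSO, with a median of 2.58. In 5C against DMSO 10 rose and 1 fell, with a median of 3.81. Apoa2 went from a mean of 3.11 CPM in DMSO to 41.9 in 3C and 174 in 5C, and Apoc3 from 2.70 to 18.7 and 92.4. F7, encoding clotting factor VII, went the other way, from 55.3 to 17.2 and 12.7 CPM. Between the cocktails 4 targets rose and 1 fell with a median of 0.73, whereas Hnf4a itself was lower in 5C. The hepatocyte markers as a whole had a median log2 fold change of 2.65 for 3C and 3.57 for 5C, each against DMSO.

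All 7 tested FOXA targets rose in each cocktail against DMSO, and the median was 2.39 for 3C and 2.35 for 5C. Pck1, the rate-limiting enzyme of gluconeogenesis, went from 2.39 CPM in DMSO to 26.2 in 3C and 118 in 5C, and G6pc, which releases glucose, from 2.22 to 11.9 and 21.0. In 5C against 3C 3 of the 7 rose and 2 fell. Those that fell were Afp, the fetal albumin (-0.86), and Igfbp1 (-0.52). Pck1 and Tat also stand on the list of CEBPA metabolic targets, of which 5 of 7 rose and 1 fell in 3C and 6 rose and 1 fell in 5C against DMSO. The member that fell was Arg1, the arginase of the urea cycle, by 0.33 and 0.85. Arg1 is also made by macrophages. Between the cocktails 1 rose and 1 fell, with a median of 0.43, while Cebpa was lower in 5C.

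The acute phase genes, many of which CEBPB activates, differed between the cocktails. Of 13 genes, 11 rose and 0 fell in 5C against 3C, with a median log2 fold change of 1.22. Orm1 went from 2.58 CPM in DMSO to 6.74 in 3C and 127 in 5C, and Saa1 from 0.263 to 0.479 and 7.14. Orm1 and Orm2, and Saa1 and Saa2, are near-identical copies whose reads may be split between them. Against DMSO 9 rose and 1 fell in 3C and 12 rose and 1 fell in 5C, and the one that fell in both was Saa3, which macrophages also make (-1.13 and -0.99). The cAMP response genes, listed because forskolin raises cAMP, showed 3 that rose and 3 that fell among 11 in 5C against 3C, with a median of 0.12. Nr4a3 (1.71), Pde4b (1.20) and Nr4a1 (0.58) rose, and Areg (-1.41), Sik1 (-0.53) and Dusp1 (-0.31) fell. Nr4a3 was near the floor, with 0.468 and 0.293 CPM in 3C and 1.35 and 1.07 CPM in 5C.

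**Figure D5:**
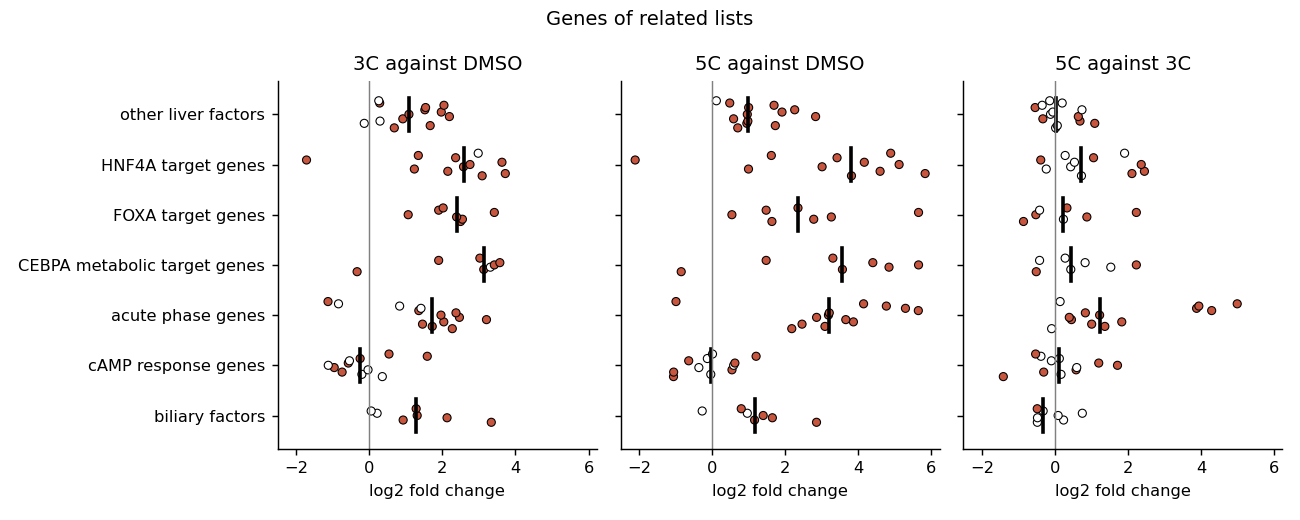
Log2 fold change (horizontal axis) of the tested genes of 7 lists in the 3 comparisons. Points are genes, filled where the adjusted p was under 0.05, and black bars are list medians. In 5C against 3C the acute phase genes have a median of 1.22, and the other liver factors of 0.02.

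For 5 factors the genes with the most similar pattern were looked up by Pearson's r of log2 CPM over the 6 libraries, among the 10246 genes that reached 10 CPM on average. These values describe 6 libraries in 3 groups and carry no test. Hnf4a was closest to Ndufaf7, an assembly factor of respiratory complex I, and also close to Depp1 (r = 0.9997 and 0.9992), and 63 genes reached 0.99. Foxa2 was closest to Abcc4, an export pump for bile acids and cyclic nucleotides, to Txnrd1 (thioredoxin reductase) and to Srxn1 (sulfiredoxin), with r from 0.993 to 0.996. Onecut2 was closest to Cacul1, Ikbke and Gars (0.992 to 0.998). Cebpa was closest to Slc7a11, the cystine transporter, Nlrc5 and Ap1g2 (0.993 to 0.994). Cebpb was closest to Tap2, Nradd and Pam16 (0.991 to 0.995). Slc7a11 went from a mean of 289 CPM in DMSO to 227 in 3C and 77.4 in 5C, a wider range than Cebpa itself, while Ndufaf7 went from 14.0 to 17.9 and 16.3, a narrower one than Hnf4a.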

How the data were processed

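Bulk RNA-seq libraries of 2 replicates for each of DMSO, 3C and 5C were analysed from a table of counts per gene that the authors deposited without normalization. The authors mapped reads to GRCm39. The submitters' processing notes name featureCounts, Subread and DESeq2 without versions or roles, and the annotation and the strand setting are not given in the sources used here. The library kit named in the labels does not mark strand. A second deposited table holds FPKM, in which gene length and depth were scaled out, and was used for levels between genes and for shares within families, and in alternatives.

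Genes were kept by filterByExpr and fitted with edgeR 4.0.16 in R 4.3.3 (TMM, robust quasi-likelihood test, all 6 libraries, a coefficient per group, 3 residual degrees of freedom). A call is a Benjamini-Hochberg adjusted p under 0.05 over all 19135 genes tested. The biological coefficient of variation was 18.4%. SE is the value implied by the F statistic, and CPM are counts scaled to a common library total. In simulated data with 19135 genes, only 100 genes were changed 2-fold and 100 genes 4-fold, in 5C. The changed genes were drawn from those above a minimum mean level, and all other genes were equal between groups. For 5C against DMSO, 90 to 96 of the first and 96 to 100 of the second were recovered in 3 runs, with 15 to 28 false calls. In the real data 28.7% of genes were called in this comparison, so these rates may not carry over.

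The factors, the gene lists and the tests were chosen with earlier results of these data known. Named genes were all 10 factors, examples among up to 4 called genes per other list and comparison with the largest change, and 3 similar genes for each of 5 factors, of which 1 is not reported here. Further genes with values, such as Gm20649, Tmem189 and Prox1os, share exons with a factor, and some list genes outside the rule (among them Arg1, Saa3, Sox9, Hes1, Spp1 and Cebpg) were named after their values were seen. Gene positions and exons came from GENCODE for GRCm39. Alternatives used DESeq2 1.42.0, limma 3.58.1 on log2(FPKM + 1) and log2(FPKM + 0.1), other normalizations and filters, a replicate block, counts divided by 4 and leaving out each library. Figures were drawn with matplotlib 3.10.9.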

Additional observations from a re-analysis of the deposited data

Results flagged for a closer look

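Factors are given here because the change against DMSO differed between the cocktails, by the direct test of 5C against 3C in edgeR with Benjamini-Hochberg adjustment over all genes. Onecut2 was higher than DMSO in both 3C libraries and lower in both 5C libraries, and its log2 fold change of 5C against 3C was -1.10 (adjusted p = 0.000151). Foxa2 had a log2 fold change of -1.18 (adjusted p = 0.00185), with 3C overlapping DMSO and 5C below it. Hhex had -0.94 (adjusted p = 0.000496) and Foxa1 -0.70 (adjusted p = 0.00599), and both rose in 3C and were not called in 5C against DMSO. Cebpa had -0.45 (adjusted p = 0.00337) and Hnf4a -0.35 (adjusted p = 0.0119). Cebpb had 0.34 (adjusted p = 0.0369), the one factor with a higher level in 5C.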

How the results depend on the processing

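Of 540 values of the factors under alternatives other than the fold limit, 507 kept direction and side of the threshold, 28 lost the call, 3 gained it and 2 changed sign. The changes of sign were Foxa1 in 5C against DMSO without 5C replicate 2 (0.014, in a range that began at -0.211) and Foxa2 in 3C against DMSO without 3C replicate 1 (-0.041, in a range that ended at 0.259), neither called in any fit. Requiring a log2 change above 1 left 5 factors in 5C against DMSO, 4 in 3C against DMSO and 2 in 5C against 3C, by construction. limma on log2(FPKM + 1) and on log2(FPKM + 0.1) called 2 factors each in 5C against 3C, beside 502 and 534 genes in all, and the cause was not tested. Leaving out 1 library left a single library in a group, so no counts of called factors or genes are given for these fits. Their values are among the 540 above. Leaving out either 3C library gave fewer called factors in 5C against 3C, and fewer called genes over all genes as well. DESeq2 and the sum of Onecut1 and Gm20649 each called 8 factors in 5C against 3C, with Onecut1 added. Of all genes they called 3165 and 2424, beside 2423 in the main fit. With CPM in place of FPKM, the share of Onecut1 rose by 11.1 points in 5C and by 7.92 in 3C against DMSO instead of 28.3 and 21.3, and that of Cebpb rose by 14.8 points in 5C against DMSO and by 10.9 against 3C instead of 11.2 and 8.15. CPM weights long genes more, by construction. Replicates with the same number did not deviate together (r from -0.03 to 0.02 across genes), so the numbers were not taken as pairs, and with a replicate block the counts of called factors were 8, 7 and 7. Having 2 libraries per group limits all of these values.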

Other observations

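The sources used here do not say whether the FPKM were computed from the deposited counts. If they were, the 2 values of a gene together give the length by which the authors' values were scaled. For Hnf4a that length, as a log2 value relative to its own mean over the libraries after centring each library, was -0.09 and -0.12 in DMSO, 0.03 and 0.03 in 3C and 0.07 and 0.08 in 5C. The groups did not overlap, and of 12703 genes with at least 100 counts in every library 16.3% had a wider range. It was 0.13 higher in 3C than in DMSO, a difference exceeded in size by 6.23% of these genes. For Cebpb, Onecut2 and Foxa3 the range was at most 0.001. RefSeq lists 2 starts for Hnf4a, but reads over exons were not analysed here.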
